A study of Pseudotaxus chienii with 9 samples.

Results

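The genes described here encode ACC synthase and ACC oxidase, the enzymes that make the plant hormone ethylene, in Pseudotaxus chienii, an evergreen conifer related to the yews. They were found by their descriptions, which come from sequence matches to other plants: 19 of the 26827 genes in the deposited table were described as an ACC synthase, an ACC oxidase or a homolog of the latter. From these 19, members were selected on their level in FPKM (fragments scaled to gene length and to library size): 7 genes reached 0.5 FPKM in at least 3 of the 9 libraries. The 7 members were 3 ACC oxidases, 1 ACC synthase, 1 gene described as ACC synthase-like and 2 oxidase homologs. The most strongly changed, PchiChr8G225290, was chosen by its level at day 1, already known, so its day 1 values are given as a description without a test.

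Messenger RNA of leaves was sequenced in 9 libraries, 3 from leaves labelled CK, 3 from leaves treated with MeJA (methyl jasmonate, a volatile form of the wound and defence hormone jasmonate) for 1 day, and 3 from leaves treated for 2 days. The labels give no genotype, age or MeJA dose, and do not say how or when the CK leaves were handled. Whether each library is a plant of its own is not said either. The p-values below therefore measure only how libraries of a group vary, which may be technical.

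Plants make ethylene from methionine. Methionine is first turned into S-adenosylmethionine, from which ACC synthase makes 1-aminocyclopropane-1-carboxylic acid (ACC). This step often limits the whole route. ACC oxidase then opens ACC to ethylene, releasing carbon dioxide and cyanide. Both enzymes come from gene families whose members are expressed in different tissues and after different stimuli. In angiosperms, ethylene and jasmonate act together on many wound and defence genes. Ethylene is perceived by receptors that, without the hormone, keep the kinase CTR1 active, and its signal ends in EIN3-type and ERF-type transcription factors.

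Libraries held 48893949 to 58703021 counts over 23194 to 24252 genes with a count above 0. Pearson's r across genes was 0.936 to 0.945 between CK libraries, 0.818 to 0.930 within day 1 and 0.901 to 0.918 within day 2; genes are not independent replicates. The leaf label was checked against 14 nuclear photosynthesis genes: their summed level was 10216 to 12644 FPKM in CK and 4042 to 7591 in treated libraries numbered 1 and 3, but 924 and 724 in those numbered 2 of day 1 and day 2. Of the 12 tested, 0 were called on either day, with median log2 fold changes of -1.27 and -1.81. In the same order of CK, day 1 and day 2, summed levels ran over 59.5 to 68.1, 146 to 214 and 134 to 183 FPKM for 35 wood and secondary wall genes, of which 23 were tested and 2 and 3 called higher. For 48 reproductive and seed genes they were 466 to 629, 1208 to 3070 and 976 to 2665, and of 40 tested 12 were called higher at day 1, and 11 higher and 1 lower at day 2. For 11 guard cell and epidermis genes sums were 172 to 265, 137 to 196 and 131 to 196, with 1 called higher on each day. Genes matching a text pattern for organelle-encoded products, 1082 in all, summed to 700.6 to 930, 660.1 to 971 and 584 to 724 FPKM. Yet 440 of the 472 tested had a positive estimate at day 1 (median log2 fold change 1.62) and 414 at day 2 (median 0.83). Only 1 was called, lower at day 1. Whether these genes lie in an organelle or are nuclear copies was not tested. Over all genes tested, 4.34% were called higher and 1% lower at day 1, and 4.09% and 0.858% at day 2. How far these differences in composition take part in the results below was not tested. In bulk tissue, fewer cells of a type and less RNA per cell cannot be told apart.

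All 7 members had enough counts to be tested. With edgeR's quasi-likelihood test at an adjusted p of 0.05, 1 of them was called at day 1 against CK, namely PchiChr8G225290, whose choice rests on that comparison; over all 22384 genes tested 5.34% were called, 4.34% as higher and 1% as lower, so nothing is read from this count. At day 2 against CK 0 of the 7 were called, beside 4.95% of all genes (4.09% higher and 0.858% lower). Between day 2 and day 1 edgeR called 0 genes of any kind, with 949 genes (4.24%) at an unadjusted p under 0.05 and 72 called by DESeq2, so no difference between the days is claimed for any member. The median log2 fold change of the 7 members was 1.38 at day 1 and 0.78 at day 2, beside 0.03 on both days for all genes tested. The set includes PchiChr8G225290, chosen for its day 1 level. Without day 1 library 2, that gene had 3.10 at day 1 and every other member between 0.06 and 0.68. No rise of the family is therefore read from these medians. Both days were compared with the same CK libraries.

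PchiChr8G225290, described as ACC oxidase 5 and carrying the enzyme number of ACC oxidase, lies on chromosome 8 at 133592228 to 133593733 of block 1, on the minus strand. Its level in CK libraries 1, 2 and 3 was 8.03, 6.83 and 9.95 FPKM. At day 1 it was 58.2, 2205 and 76.9 FPKM. At day 2 it was 131, 149 and 75.0 FPKM. All 6 treated libraries therefore lay above all 3 CK libraries, the lowest of them 5.85 times the highest CK library. A separation above CK by any amount was found in 10.4% of all genes tested, and in 13.5% for day 1 and 18.1% for day 2 taken alone. Day 1 library 2 stood far above the rest, at 14.8 times the next highest library.

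Against the CK mean, the gene was 7.04-fold, 267-fold and 9.29-fold higher in day 1 libraries 1, 2 and 3, and 15.8-fold, 18.0-fold and 9.07-fold higher in the day 2 libraries. Its rank by FPKM in the whole table moved from between 8255 and 10380 in CK to 1712, 8 and 1291 at day 1, so that in day 1 library 2 only 7 genes were higher. The fitted log2 fold change was 6.79 (SE 1.58) at day 1, and 3.10 with day 1 library 2 left out. At day 2 it was 3.97 (SE 1.38, edgeR adjusted p = 0.133). Whether the gene passed at day 2 depended on day 1 library 2, which enters the shared estimate of spread. Without it the day 2 value was 3.99 (edgeR adjusted p = 0.00279). Without both treated libraries numbered 2, a fit added after seeing the data, it was 3.68 (edgeR adjusted p = 0.00369). PchiChr8G225290 was picked from these same data, and these fits drop its most extreme library. They are therefore a description, and the day 2 difference is not taken as called. Day 2 against day 1 gave a log2 fold change of -2.82 (SE 1.31), also given without a test. The plot of levels by library shows the member beside the other 6.

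**Figure D1:**
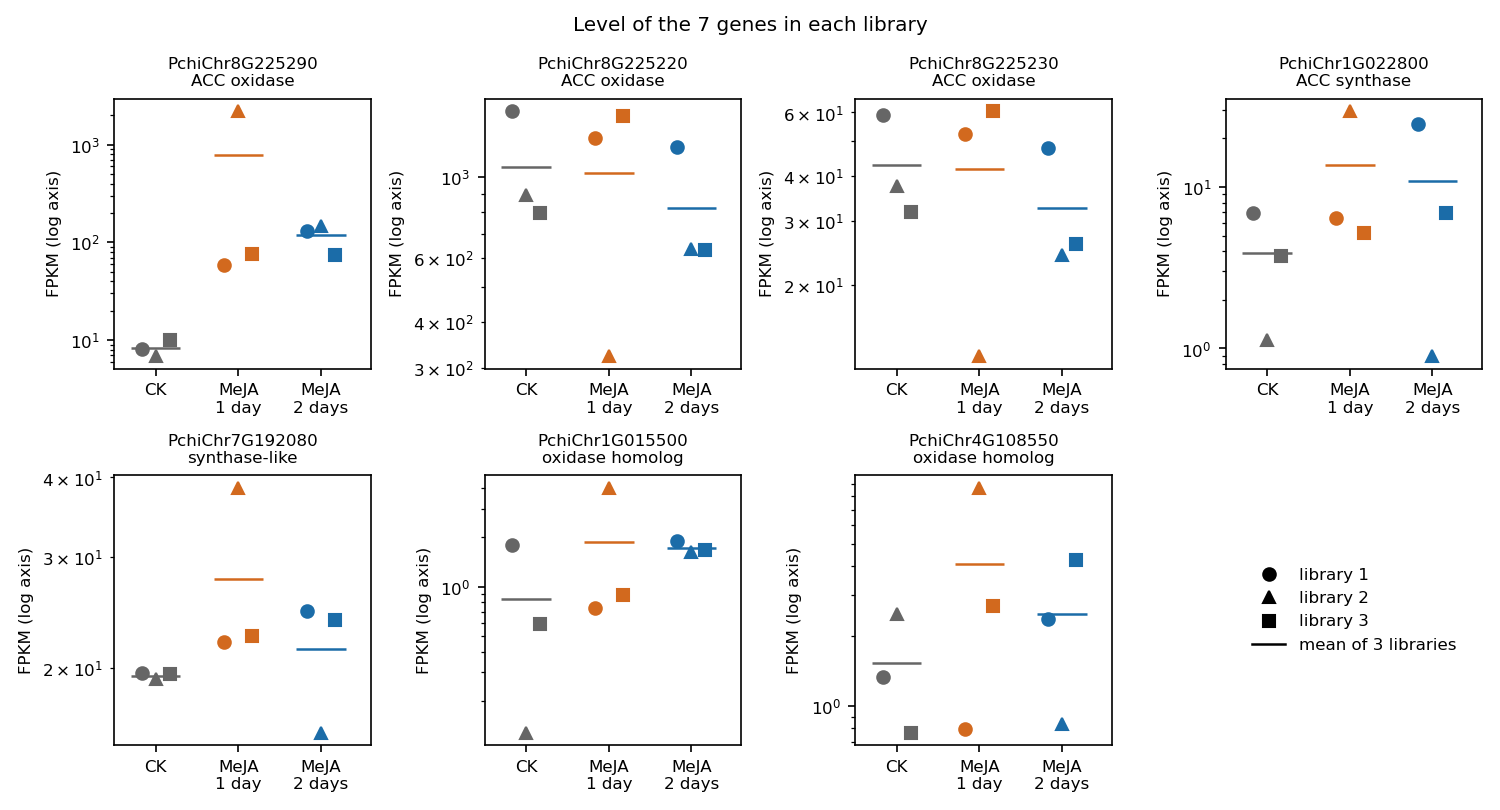
Level of the 7 members in each library, in FPKM on log axes that differ between panels; symbols mark the library number and bars the mean of 3 libraries. PchiChr8G225290 has all 6 treated libraries above CK, while the groups of the other 6 genes overlap on at least 1 of the days.

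PchiChr8G225220, described as ACC oxidase 5-like, was the most abundant ACC oxidase of CK leaves and lies at 131256480 to 131258333 of the same chromosome block, on the minus strand. It was at 1516, 894 and 797 FPKM in CK, 1280, 323 and 1474 at day 1, and 1210, 634 and 630 at day 2. The groups overlapped on day 1, where library 2 was the lowest of all 9, and on day 2. The log2 fold change was 0.05 at day 1 (SE 0.55, edgeR adjusted p = 0.964) and -0.26 at day 2 (SE 0.55, edgeR adjusted p = 0.799). Neither estimate keeps its sign when single libraries are left out, so no direction is given (-0.29 to 0.45 at day 1 and -0.61 to 0.05 at day 2).

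PchiChr8G225230, described as an ACC oxidase, lies next to it at 131353638 to 131354935 on the minus strand. It was at 59.0, 37.6 and 31.8 FPKM in CK, 52.4, 12.7 and 60.5 at day 1, and 47.8, 24.2 and 25.9 at day 2. Its log2 fold change was 0.07 at day 1 (SE 0.51, edgeR adjusted p = 0.939) and -0.28 at day 2 (SE 0.51, edgeR adjusted p = 0.761). Without 1 library these ran from -0.27 to 0.49 and from -0.63 to -0.00097, so no direction is given here either. The FPKM of PchiChr8G225220 was between 23.8 and 26.3 times that of PchiChr8G225230 in each of the 9 libraries. Reads of near-identical copies cannot be told apart in such counts, and whether that takes part in the fixed ratio was not tested.

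Because FPKM is scaled to gene length, levels of the 10 genes described as ACC oxidases and carrying its enzyme number can be summed. Their total was 1583, 939 and 839 FPKM in CK libraries 1, 2 and 3. It was 1391, 2566 and 1611 FPKM at day 1, and 1389, 815 and 732 FPKM at day 2. The total thus overlapped between CK and both treated groups, and day 1 library 2 held the highest. The make-up of the total differed more than the total itself.

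The share of PchiChr8G225290 was 0.507%, 0.728% and 1.19% in CK, 4.18%, 85.9% and 4.77% at day 1, and 9.42%, 18.3% and 10.3% at day 2. PchiChr8G225220 gave 95.0% to 95.8% of the total in CK, 92.0%, 12.6% and 91.5% at day 1, and 87.1%, 77.8% and 86.1% at day 2. In 8 of the 9 libraries PchiChr8G225220 was therefore the main ACC oxidase. In day 1 library 2 the order was turned round, with PchiChr8G225220 at its lowest level and PchiChr8G225290 at its highest. The shares are set by the values that singled out PchiChr8G225290 and are given without a test.

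**Figure D2:**
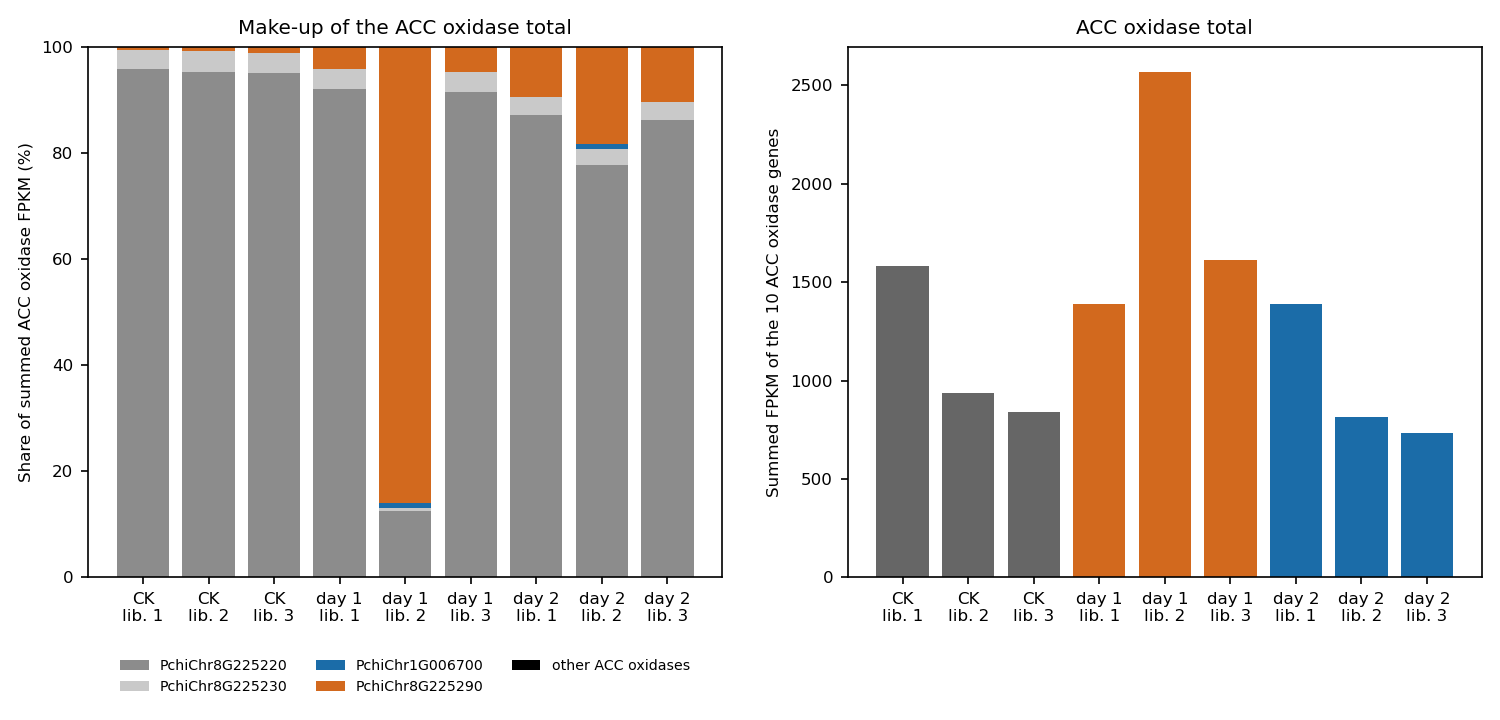
Left, share of each gene in the summed FPKM of the 10 ACC oxidases, in percent, in each library; right, that sum in FPKM. PchiChr8G225290 gives 0.507% to 1.19% in CK and 4.18% to 18.3% in 5 treated libraries, against 85.9% in day 1 library 2.

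The 3 oxidase members belong to 1 row of 8 ACC oxidase genes, PchiChr8G225220 to PchiChr8G225290, which fills 2337 kb of chromosome 8 with no other annotated gene between them. Gaps between neighbours in the row were 93.6 to 641 kb, and 6 of the genes lie on the minus strand. The members stand at its ends. PchiChr8G225220 and PchiChr8G225230 are at the low end, PchiChr8G225290 is at the high end, and none of the 5 genes between them reached 0.5 FPKM in more than 1 library.

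Of these 5, PchiChr8G225240 was at 1.51 FPKM in day 1 library 2 and at 0.134 or less in the other 8 libraries. PchiChr8G225250, PchiChr8G225260 and PchiChr8G225270 had a level above 0 in day 1 library 2 alone, of 0.176, 0.0430 and 0.169 FPKM. These levels rest on 11, 3 and 10 counts, and whether reads of PchiChr8G225290 take part was not tested. PchiChr8G225280, the gene next to PchiChr8G225290, was listed at 0 in CK and in day 1 library 2. Low levels of 0.192 and 0.138 FPKM were found in the other day 1 libraries, and of 0.219, 0.0937 and 0.341 at day 2 (edgeR adjusted p = 0.135 at day 1 and 0.0986 at day 2). Its neighbour's peak in day 1 library 2 was thus not shared by PchiChr8G225280. Outside the row, the nearest genes were PchiChr8G225210, of unknown description and at 0.277 FPKM or less, 1.32 kb before it. On the other side PchiChr8G225310, a hypothetical protein 1557 kb away, was at 23.1 to 30.9 FPKM in CK and 10.5 to 24.5 in the treated libraries.

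**Figure D3:**
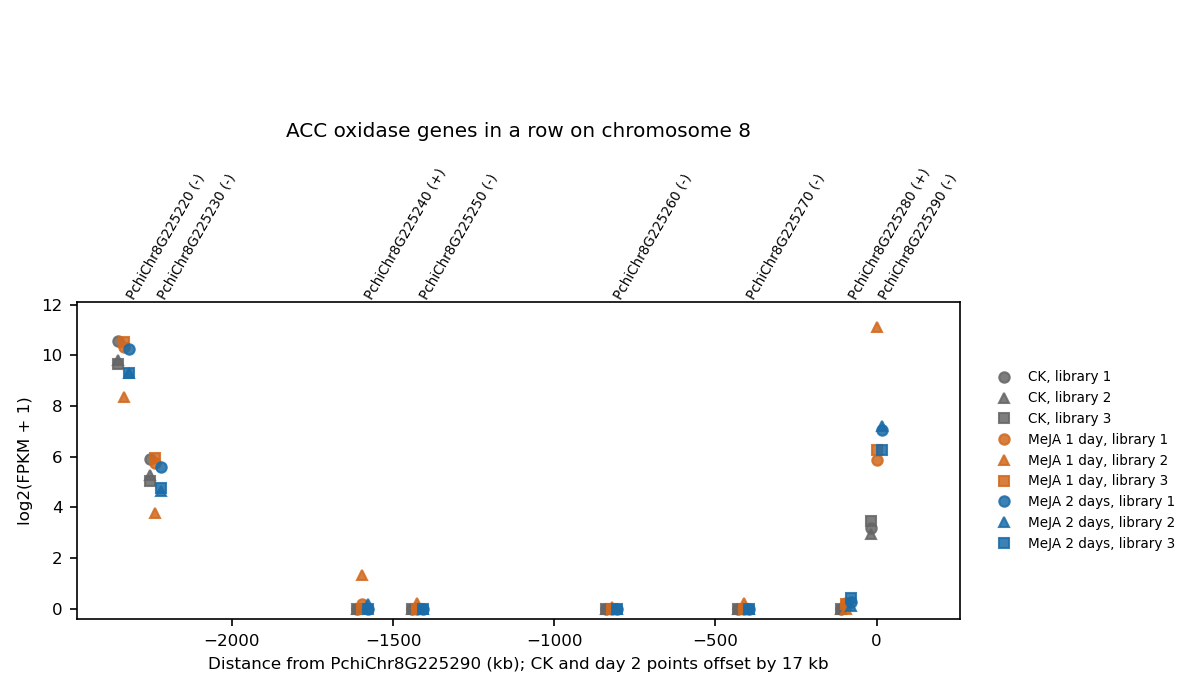
Level of the 8 ACC oxidase genes in the row on chromosome 8, as log2(FPKM + 1), against distance from PchiChr8G225290 in kb, with the strand beside each name. Symbols and colours mark library and group; the 3 members, at the ends of the row of 2337 kb, have the highest levels, and the genes between them reach at most 1.51 FPKM.

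A further ACC oxidase 5, PchiChr1G006700 on chromosome 1 (block 1, 277116456 to 277118060, plus strand), fell just outside the members, with 0.5 FPKM reached in 2 libraries. It was at 0.0814, 0.310 and 0.0921 FPKM in CK, 0.253, 23.1 and 0.0920 at day 1, and 0.427, 7.73 and 0.0858 at day 2. Both high values came from the libraries numbered 2 of the treated groups, where photosynthesis genes were lowest, and the day 1 comparison was not called (edgeR adjusted p = 0.204). The gene 217 kb after it, PchiChr1G006710, is described as RAP2-1, an ERF-type transcription factor. That neighbour was at 60.8 FPKM in day 1 library 2 and at 1.18 or less in the other libraries. The gene before it, PchiChr1G006690, an uncharacterized protein, stayed between 11.1 and 16.4 FPKM. The last ACC oxidase, PchiChr9G250580, did not exceed 0.0479 FPKM. Both genes next to it have no description, PchiChr9G250560 874 kb before and PchiChr9G250590 804 kb after it, and both were far more abundant: they were at 4.95 to 26.4 and 7.53 to 33.1 FPKM in CK, and at 65.98 to 948 and 104 to 1232 in treated libraries, highest in day 1 library 2.

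PchiChr1G022800 was the only ACC synthase among the members, the enzyme of the step that commits S-adenosylmethionine to ethylene. It lies on chromosome 1 at 471950932 to 471966290 of the block named 500000001, on the minus strand. Its level was 6.90, 1.14 and 3.73 FPKM in CK, 6.43, 29.5 and 5.22 at day 1, and 24.7, 0.895 and 6.95 at day 2. The highest values came from day 1 library 2 and day 2 library 1, the lowest from day 2 library 2, and all 3 groups overlapped.

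The log2 fold change of PchiChr1G022800 was 2.02 at day 1 (SE 1.18, edgeR adjusted p = 0.319) and 1.52 at day 2 (SE 1.16, edgeR adjusted p = 0.443). Without day 1 library 2 the day 1 value was 0.68 (edgeR adjusted p = 0.786), and without day 2 library 1 the day 2 value was 0.083 (edgeR adjusted p = 0.973). With other libraries left out the day 2 value reached up to 2.19. The 6 genes described as ACC synthase summed to 1.14 to 7.00 FPKM in CK, 5.26 to 32.6 at day 1 and 0.940 to 25.7 at day 2. PchiChr1G022800 made up 90.7% to 100% of that sum in every library. ACC synthase transcripts, per length, were thus far below those of ACC oxidase in each library.

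Like the oxidases, the synthase member lies in a row of its own kind, of 4 ACC synthase genes over 1633 kb with gaps of 194 to 818 kb. Its neighbours PchiChr1G022790, 600.2 kb before it, and PchiChr1G022820, 818 kb after it, stayed under 1 FPKM. PchiChr1G022780, PchiChr1G022790 and PchiChr1G022880 all had their highest level in day 1 library 2, at 0.892, 0.916 and 0.496 FPKM. PchiChr1G022820 was at 0.734 FPKM in day 1 library 2 and at 0.837 in day 2 library 1, the same libraries in which PchiChr1G022800 was highest. In day 1 library 2 these genes, in the order named, had 70, 72, 41 and 64 counts, beside 2217 of PchiChr1G022800. In day 2 library 1 PchiChr1G022820 had 67 counts and PchiChr1G022800 had 1707. Whether reads of PchiChr1G022800 take part in these levels was not tested. The sixth, PchiChr8G231360, had a level above 0 in day 2 library 1 alone, of 0.0811 FPKM.

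PchiChr7G192080 is described as ACC synthase-like, but carries no enzyme number of ACC synthase, and its annotation terms also name an aminotransferase, a related class of enzymes. It lies on chromosome 7 at 13294297 to 13362976 of block 1, on the minus strand. Its level was 19.6, 19.2 and 19.6 FPKM in CK, 22.0, 38.5 and 22.5 at day 1, and 24.6, 15.8 and 23.8 at day 2. All 3 day 1 libraries lay above the narrow CK range, as for 13.5% of all genes tested, while day 2 had 1 library below it. The difference did not pass the test at day 1 (log2 fold change 0.67, SE 0.28, edgeR adjusted p = 0.192) or at day 2 (log2 fold change 0.24, SE 0.28, edgeR adjusted p = 0.615). Without day 1 library 2 the day 1 value was 0.27 (edgeR adjusted p = 0.410).

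The other 2 members carry the name of ACC oxidase but an enzyme number of the wider family of 2-oxoglutarate-dependent dioxygenases, to which ACC oxidase is related. PchiChr1G015500 (chromosome 1, block 500000001, 102706963 to 102711805, minus strand) was at 1.79, 0.128 and 0.588 FPKM in CK, 0.739, 4.03 and 0.888 at day 1, and 1.90, 1.63 and 1.67 at day 2. The log2 fold change was 1.38 at day 1 (SE 0.95, edgeR adjusted p = 0.387) and 1.18 at day 2 (SE 0.95, edgeR adjusted p = 0.466), and the groups overlapped on day 1 and on day 2. PchiChr4G108550 (chromosome 4, block 1, 383730425 to 383732759, minus strand) was at 1.33, 2.50 and 0.766 FPKM in CK, 0.793, 8.72 and 2.69 at day 1, and 2.37, 0.837 and 4.25 at day 2. Its log2 fold change was 1.60 at day 1 (SE 0.92, edgeR adjusted p = 0.314) and 0.78 at day 2 (SE 0.91, edgeR adjusted p = 0.623). Both day 1 values rested on library 2, without which they were 0.06 and 0.24 (edgeR adjusted p = 0.978 and 0.894). At day 2, leaving out 1 library gave 0.71 to 2.37 for PchiChr1G015500, highest without CK library 1, and 0.14 to 1.36 for PchiChr4G108550, lowest without day 2 library 3.

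Day 1 library 2 thus recurs through the family. It held the highest level of 5 of the 7 members and of 8 of the 12 other matching genes, and the lowest level of the other 2 members. PchiChr8G225290 is among these 5 and was chosen for its day 1 level, so nothing is read from its place there. Among these 8, PchiChr8G225240, PchiChr8G225250, PchiChr8G225260 and PchiChr8G225270 had only 87, 11, 3 and 10 counts there. PchiChr8G225290, of the same row, had 168936 counts in that library. Whether reads shared with it take part was not tested. The synthases PchiChr1G022780, PchiChr1G022790 and PchiChr1G022880, also among these 8, had 70, 72 and 41 counts there, beside 2217 of PchiChr1G022800. Whether these synthases share reads was not tested either. Among all genes tested day 1 library 2 held the highest level of 18.6% and the lowest of 28.9%. The members are not independent of each other, and no test was made of these counts.

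Of the neighbours of the 3 members outside the rows, none had its highest level in day 1 library 2. PchiChr1G015470, named for sieve element occlusion and 2421 kb before PchiChr1G015500, was at 8.22 to 11.5 FPKM in CK and 2.65 to 7.10 in the treated libraries. PchiChr1G015510, 38.7 kb after PchiChr1G015500 and of unknown function, was at 1.36 to 7.03 FPKM. Beside PchiChr4G108550, the unknown PchiChr4G108540 was at 4.17 to 11.0 FPKM and PchiChr4G108560, without a description, at 0.0945 or less. Beside PchiChr7G192080, the zinc finger gene PchiChr7G192070 was at 0.543 to 2.57 FPKM and the protein kinase gene PchiChr7G192100 at 8.17 to 12.3.

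Profiles most like that of PchiChr8G225290 were sought over the 9 libraries by the root mean square difference of log2(FPKM + 1), each gene centred on its own mean, among 7532 genes with an informative description. The smallest difference, 0.579, was that of PchiChr8G240750, described as a plant cadmium resistance protein, at 0.465 to 1.25 FPKM in CK, 11.2, 256 and 5.69 at day 1 and 10.9 to 38.7 at day 2. It was followed by PchiChr2G063390, described as apoptosis-inducing factor 2, at 0.643 and by PchiChr2G065040, at 0.644, whose description names AGO10 while its other annotation names a protein kinase. PchiChr7G218360, described as ERF5-like, came next at 0.663, with 1.68 to 3.17 FPKM in CK, 12.7, 432 and 6.73 at day 1 and 20.4 to 27.2 at day 2. The fifth was PchiChr1G030710, a wall-associated receptor kinase, at 0.687. The median difference was 2.50 over all 17980 genes compared, with or without an informative description. These were genes other than members with a mean of at least 1 FPKM. Another 6 of them, without an informative description, came closer than the fifth. All 5 named genes, like PchiChr8G225290, were highest in day 1 library 2, and the points share their libraries, so the likeness is a description.

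**Figure D4:**
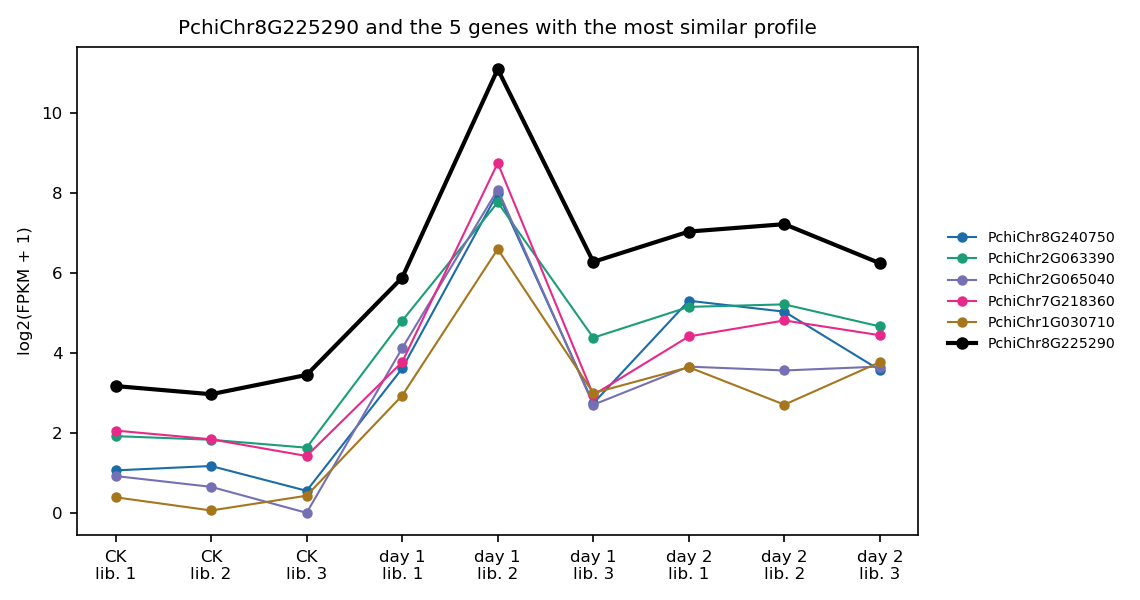
Level of PchiChr8G225290 (black) and 5 other genes, as log2(FPKM + 1), in each library. The 5 have the smallest profile difference among genes with an informative description. Lines only join the points of a gene. Every gene is low in CK, highest in day 1 library 2 and between these in the other treated libraries.

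Upstream of the members, S-adenosylmethionine synthases supply the substrate shared by ethylene, polyamines and methylation. Of 8 such genes tested, 1 rose on each day and 0 fell, beside 4.34% and 4.09% of all genes called higher. Their median log2 fold change was 1.84 at day 1 and 1.62 at day 2, beside 0.03 for all genes, but 5 of the 8 lie near each other on chromosome 10 (PchiChr10G288350 to PchiChr10G288420), may share reads, and had estimates of 1.73 to 2.65 and 1.55 to 2.35. PchiChr10G288420 was at 0.884, 1.27 and 2.23 FPKM in CK, 7.13, 12.9 and 4.64 at day 1, and 8.83, 6.57 and 5.46 at day 2. All treated libraries lay above CK, as for 10.4% of all genes tested. The log2 fold change of PchiChr10G288420 was 2.65 at day 1 (SE 0.52, edgeR adjusted p = 0.0302) and 2.35 at day 2 (SE 0.52, edgeR adjusted p = 0.0428). The day 1 call was lost without each CK library or day 2 library 1 or 3 (edgeR adjusted p up to 0.112), and the day 2 call held only without day 1 library 2 or 3 (up to 0.139 otherwise). PchiChr10G288370 had estimates of 2.06 and 1.88 that did not pass (edgeR adjusted p = 0.0664 and 0.0845). PchiChr6G179820, an abundant gene named outside the rule given below, was at 424, 473 and 531 FPKM in CK. It was at 1039, 598 and 1506 at day 1, and 881, 1936 and 858 at day 2. Its log2 fold changes of 1.24 and 1.53 also did not pass (edgeR adjusted p = 0.176 and 0.115).

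The Yang cycle returns the sulphur-bearing by-product of ACC synthesis to methionine. The 4 genes listed for this and the methionine cycle were not called on either day, with medians of -0.26 and -0.67. The lowest adjusted p was that of PchiChr2G049590, a methylthioribulose phosphate dehydratase and enolase-phosphatase, with a log2 fold change of -0.90 at day 2 (edgeR adjusted p = 0.0875) and -0.38 at day 1 (edgeR adjusted p = 0.380). PchiChr8G245500, a methylthioribose kinase, had -0.61 at day 2 (edgeR adjusted p = 0.192). PchiChr8G233840, an S-adenosylhomocysteine hydrolase and so not a Yang cycle gene, had -0.45 at day 1 (edgeR adjusted p = 0.432). A methylthioribose phosphate isomerase found by its KEGG entry, PchiChr2G061850, was at 16.2 to 20.6 FPKM in CK, 28.3 to 49.2 at day 1 and 36.8 to 103 at day 2, with a log2 fold change of 1.90 at day 2 (edgeR adjusted p = 0.0512). The other genes found this way were not called: PchiChr1G031240, a methylthioadenosine nucleosidase, and PchiChr9G264660, an acireductone dioxygenase.

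Arginine decarboxylase starts 1 route to the polyamines, which compete with ethylene for S-adenosylmethionine, and 1 of the 2 genes described so rose on both days. PchiChr9G265550 was at 126, 101 and 76.8 FPKM in CK, 448, 688 and 538 at day 1, and 506, 591 and 655 at day 2. The lowest treated library was 3.54 times the highest CK library, and the log2 fold change was 2.62 at day 1 (SE 0.35, edgeR adjusted p = 0.0105) and 2.66 at day 2 (SE 0.35, edgeR adjusted p = 0.0100). The day 1 call was lost without each CK library (edgeR adjusted p up to 0.0626), and the day 2 call without CK library 1 or 3 (up to 0.0602). It was the only 1 of 5 polyamine genes tested that was called, beside 4.34% and 4.09% of all genes called higher. The list medians were 0.37 and 0.53. The second arginine decarboxylase, PchiChr6G178610, is named after its values were seen: it was at 12.2, 10.2 and 11.3 FPKM in CK, 10.2, 1.86 and 7.05 at day 1, and 6.10, 2.11 and 6.63 at day 2. All 6 treated libraries were below CK, the highest of them only just, and the estimates of -0.71 and -1.10 did not pass (edgeR adjusted p = 0.446 and 0.266). Taken alone, day 1 libraries all lay below CK in 23.5% of all genes tested, and day 2 libraries in 23.7%. The share for all 6 was not counted. An S-adenosylmethionine decarboxylase, PchiChr3G095450, did not exceed 0.104 FPKM.

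ETO1-type proteins, which in Arabidopsis mark ACC synthase for breakdown, gave 1 call among 3 genes. It was a rise at day 1, beside 4.34% of all genes called higher. PchiChr10G290060 was at 8.46, 8.32 and 6.14 FPKM in CK, 14.0, 21.9 and 13.6 at day 1, and 11.1, 12.5 and 10.4 at day 2. It rose at day 1 (log2 fold change 1.27, SE 0.28, edgeR adjusted p = 0.0400), and the day 2 difference of 0.71 did not pass (edgeR adjusted p = 0.164). Without day 1 library 2, where photosynthesis genes were near their lowest, the day 1 value was 0.94 (edgeR adjusted p = 0.0504). The call was also lost without each CK library, day 1 library 1, or day 2 library 1 or 3 (edgeR adjusted p up to 0.157). PchiChr7G205780 had -0.25 and -0.28 on the log2 scale (edgeR adjusted p = 0.338 and 0.296).

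Cyanide, the by-product of ACC oxidase, is bound by cyanoalanine synthase. Neither of the 2 genes described so was called: PchiChr7G219890 was at 126 to 179 FPKM in CK, 172, 60.2 and 178 at day 1 and 143 to 214 at day 2, and PchiChr5G146620 did not exceed 0.264. Another, PchiChr7G219880, has no informative description and was found by its KEGG entry after the data had been seen. It was at 7.71, 9.92 and 8.85 FPKM in CK, 18.0, 431 and 28.4 at day 1, and 14.4, 71.0 and 24.0 at day 2. All 6 treated libraries lay above CK, as for 10.4% of all genes tested, and the libraries numbered 2 were highest in both treated groups. Neither day passed (log2 fold change 4.40, SE 1.35, edgeR adjusted p = 0.102 at day 1, and 2.24, edgeR adjusted p = 0.295 at day 2). Without day 1 library 2 the day 1 value was 1.46 (edgeR adjusted p = 0.282).

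Downstream, 10 genes of the signal relay between receptor and nucleus gave 1 call on each day, a fall, beside 1% and 0.858% of all genes called lower. PchiChr12G331150, described as a CTR1 kinase, the negative regulator next to the receptors, was at 3.56, 3.42 and 3.20 FPKM in CK, 1.51, 0.773 and 1.26 at day 1, and 1.22, 0.785 and 0.682 at day 2. Each treated group lay wholly below CK, as for 23.5% of all genes at day 1 and 23.7% at day 2, and the log2 fold change was -1.39 at day 1 (SE 0.31, edgeR adjusted p = 0.0409) and -1.80 at day 2 (SE 0.31, edgeR adjusted p = 0.0206). The day 1 call held only without day 1 library 1 and was lost without each other library (edgeR adjusted p up to 0.129). The day 2 call was lost without each CK library, day 2 library 2 or day 2 library 3 (up to 0.0827). CTR1 names in such annotations are shared with other kinases of the Raf type. Of the genes so described only PchiChr11G304030 carries the KEGG entry of CTR1, and PchiChr12G331150 carries none. PchiChr11G304030 is named after its values were seen. It was at 8.04 to 10.7 FPKM in CK, 11.5 to 16.1 at day 1 and 9.15 to 11.1 at day 2. Its log2 fold changes of 0.62 and 0.23 did not pass (edgeR adjusted p = 0.147 and 0.542). The fall of PchiChr12G331150 is thus not read as a fall of CTR1. Which of the 10 genes acts on ethylene was not tested. PchiChr7G220980, also described as CTR1, was at 0.335 FPKM or less, with -1.95 at day 1 (edgeR adjusted p = 0.0562). PchiChr4G108140, an EIN3-like transcription factor, had 1.10 at day 2 (edgeR adjusted p = 0.121).

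No description named an ethylene receptor, so receptors were taken by their KEGG entry, which was done after the data had been seen. None of the 4 was called. PchiChr2G053360, the most abundant, was at 10.1 to 12.0 FPKM in CK, 10.3 to 18.0 at day 1 and 12.4 to 20.4 at day 2. PchiChr4G119100 was at 0.102 to 0.399 FPKM in CK and 0.895 to 0.957 at day 2, and at 0.335, 21.2 and 0.564 at day 1, again with library 2 apart (log2 fold change 4.88, SE 1.59, edgeR adjusted p = 0.118; 0.68 and adjusted p = 0.564 without it). PchiChr11G317950 and PchiChr3G088690 stayed between 3.02 and 10.4 FPKM. The 2 EIN3-binding F-box genes, whose products break down EIN3, were not called either. PchiChr2G047760 was at 28.6, 25.5 and 24.8 FPKM in CK, 6.97, 26.3 and 10.4 at day 1, and 6.01, 16.5 and 4.55 at day 2. Here the libraries numbered 2 lay nearer CK than the other treated ones, and PchiChr6G179380 was likewise at 12.2 and 11.0 FPKM in these, beside 8.80 to 10.1 in CK and 2.58 to 4.93 in the other treated libraries.

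Ethylene response factors, the transcription factors named for this hormone although many answer to other signals, gave 8 genes higher and 0 lower among 36 tested at day 1, and 6 higher and 0 lower at day 2. Over all genes 4.34% and 4.09% were called higher. The list's median log2 fold change was 1.36 at day 1 and 0.58 at day 2, beside 0.03 for all genes. PchiChr12G324200, described as TINY, was at 0.874, 1.81 and 0.390 FPKM in CK, 20.3, 53.7 and 15.0 at day 1, and 15.2, 8.57 and 8.98 at day 2. It rose by 5.03 on the log2 scale at day 1 (SE 0.76, edgeR adjusted p = 0.0136) and by 3.50 at day 2 (SE 0.71, edgeR adjusted p = 0.0344). PchiChr7G218210, described as ERF5, was at 6.23, 9.11 and 4.78 FPKM in CK, 94.7, 13.7 and 77.8 at day 1, and 135, 51.6 and 101 at day 2. It rose by 3.31 at day 1 (SE 0.67, edgeR adjusted p = 0.0321) and by 3.92 at day 2 (SE 0.68, edgeR adjusted p = 0.0219). In this gene day 1 library 2 was the lowest of the treated libraries, the reverse of PchiChr8G225290. The TINY call was lost without CK library 1 or 3 at day 1 (edgeR adjusted p up to 0.0772), and at day 2 held only without day 1 library 2 or 3 (up to 0.136 otherwise). The ERF5 call was lost without each CK library or day 2 library 3 on both days, and at day 1 also without day 1 library 1 or 3 or day 2 library 1 (up to 0.133 at day 1 and 0.103 at day 2).

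PchiChr9G259810, described as ERF024-like, was at 0.775 to 13.7 FPKM in CK and 86.2 to 129 in the treated libraries, and was called on both days (edgeR adjusted p = 0.0341 and 0.0356). PchiChr3G068970, described as ERF6, and PchiChr3G078280, described as ERF071-like, were also called on both days, with smaller log2 fold changes of 1.78 and 1.01 at day 1 and 1.85 and 1.25 at day 2. PchiChr11G303570, another ERF024-like gene, was called at day 1 alone (3.95, edgeR adjusted p = 0.0269; day 2, 2.72, edgeR adjusted p = 0.0669), and the difference between the days was not called. PchiChr11G303520 and PchiChr12G324280 had no count in CK and at most 2.09 and 0.867 FPKM in treated libraries. Against a floor of 3 counts over the CK group they were at least 15.5-fold and at least 23.9-fold higher at day 1. With such genes at this bound the medians of the list were the same. Each of these 6 genes lost its calls without CK library 1 and at least 4 others (edgeR adjusted p up to 0.140), and over the 9 fits without 1 library the list held 0 to 9 calls at day 1 and 0 to 12 at day 2.

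**Figure D5:**
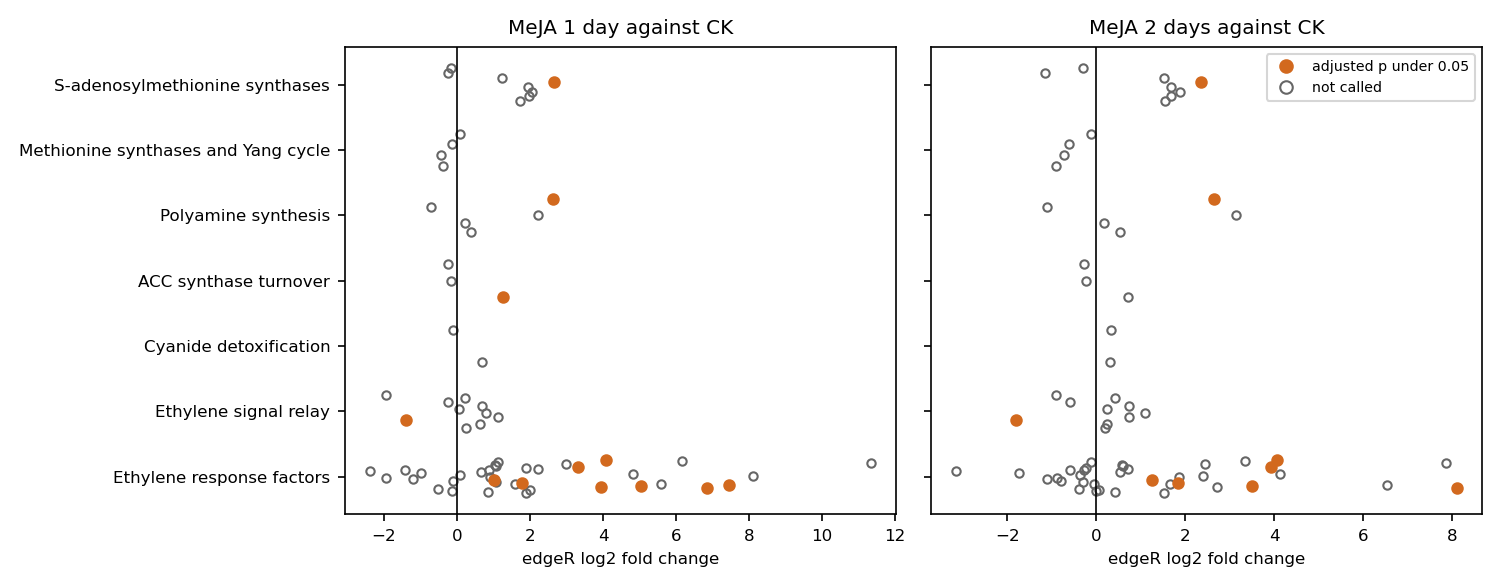
edgeR log2 fold change of each tested gene in 7 lists around ACC, at day 1 (left) and day 2 (right) against CK; filled points are called at an adjusted p of 0.05. Ethylene response factors hold 8 and 6 called genes, all higher, and the other lists hold at most 1 each.

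Genes described by 2-oxoglutarate or by an enzyme using it served to set the oxidases beside their wider family. Of 17 tested, 2 are mitochondrial 2-oxoglutarate dehydrogenases, which belong to the citric acid cycle and not to that family, and neither was called. Of the other 15, dioxygenases mostly of flavonoid and gibberellin metabolism, 1 rose on each day and 0 fell. Over all genes tested 4.34% and 4.09% were called higher, so nothing is read from this count. PchiChr11G311480, described as a flavonol synthase or flavanone hydroxylase and sharing its KEGG entry with PchiChr1G015500 and PchiChr4G108550, was at 0.791 to 1.66 FPKM in CK, and at 19.6 to 24.5 in the treated libraries. It rose by 4.30 at day 1 (SE 0.31, edgeR adjusted p = 0.00253) and by 4.23 at day 2 (SE 0.31, edgeR adjusted p = 0.00370), and it stayed called with each library left out in turn. PchiChr3G093820, with 1.90 at day 1 (edgeR adjusted p = 0.0515), and PchiChr6G182970, with 6.03 at day 2 (edgeR adjusted p = 0.0730), did not pass; the latter was at 3.10, 159 and 12.5 FPKM in the day 2 libraries. The treated libraries of PchiChr11G311480 differed little from each other, whereas those of PchiChr8G225290 ran from 58.2 to 2205 FPKM.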

How the data were processed

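Leaf RNA was extracted with TRIzol and libraries of polyA RNA were built with a VAHTS Universal V6 kit, as the labels' protocols state. Per the submitters' processing notes fastp, HISAT2 and HTSeq were used. No version, setting, genome build or strand rule is given in the sources used here, so antisense partners cannot be told apart. The authors deposited 1 table with estimated counts and FPKM per library. Low counts were compared with FPKM times a constant for each gene: of 214, 100% were 0 to 1 higher (tolerance 0.05), so the deposited counts appear rounded up, and were used unchanged. Positions, descriptions, enzyme numbers and KEGG entries are those of the table, whose chromosome names carry a number given here as a block.

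The main test was two-sided, by edgeR 4.0.16 (quasi-likelihood, R 4.3.3), in 1 fit of all 9 libraries with TMM factors, a minimum count of 10 in filterByExpr and no covariates. P-values were Benjamini-Hochberg adjusted over 22384 genes, with a threshold of 0.05. Alternatives were DESeq2 1.42.0, limma 3.58.1 on log2(FPKM + 1) and log2(FPKM + 0.1), RLE factors, no filter, only the 2 groups compared, a replicate block, and each library left out. Leaving out both treated libraries numbered 2 was added after seeing the data. The edgeR step was tested on simulated data. Members and lists were chosen with earlier results of these data known. Genes named are all matching genes, and per pathway list those called and the 2 with the lowest adjusted p on each day. PchiChr6G179820, PchiChr6G178610 and PchiChr11G304030 are also named, outside this rule. The 5 most similar profiles with an informative description and nearest neighbours are also named. Marker lists are given as sums, and genes found by KEGG entry were added after seeing the data.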

Additional observations from a re-analysis of the deposited data

How the results depend on the processing

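Genes called at day 1 numbered 3742 with DESeq2, 1803 without both treated libraries numbered 2, 747 with a replicate block, 534 with only the 2 groups compared, and 134 to 1193 without 1 library, against 1196. At day 2 they numbered 4012 with DESeq2, 2430 without both libraries numbered 2, 1945 with only the 2 groups compared, and 48 to 2893 without 1 library, against 1107. Between the days DESeq2 called 72. Of the members, 0 were called at day 1 with limma (both pseudocounts), no filter, only the 2 groups compared or the replicate block, and 0 to 1 without 1 library. At day 2, 1 was called without both libraries numbered 2 or with only the 2 groups compared, and 0 to 1 without 1 library. DESeq2 gave PchiChr8G225290 no adjusted p. With no level threshold there were 19 members. The cause of these differences was not tested. Same-numbered libraries did not deviate together in every pair. Correlations were -0.123 to -0.0888 for CK and day 1 and -0.00359 to 0.140 for CK and day 2. For day 1 and day 2 they were 0.307, -0.0181 and 0.262 for numbers 1, 2 and 3. With numbers 1 and 3 crossed they were -0.260 and -0.333. Pearson's r across genes between the days was 0.958, 0.795 and 0.959 for numbers 1, 2 and 3, beside at most 0.945 within a group. The main fit did not take the numbers as pairs. Whether day 1 and day 2 libraries are paired was not tested.

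Of 236 member fold changes under the alternatives, 208 kept direction and call, 14 reversed, and 14 of PchiChr8G225290 changed their call. On the log2 scale, PchiChr8G225220 at day 1 was -0.28 and -0.27 with limma and -0.044 with the replicate block (-0.29 to 0.45 without 1 library; at day 2, -0.61 to 0.053). PchiChr8G225230 at day 1 was -0.27 and -0.25 with limma and -0.041 with the block (-0.27 to 0.49). PchiChr1G031240 at day 2, near 0, was -0.15 and -0.14 with limma, -0.025 with no filter, -0.012 with only the 2 groups compared and -0.0040 with the block (-0.27 to 0.13). At day 1 PchiChr7G219890 was 0.21 without both libraries numbered 2 (-0.34 to 0.21 without 1 library), PchiChr6G179380 -0.96 to 0.024, PchiChr6G182970 -0.79 to 1.00 and PchiChr9G264660 -0.25 to 0.066. PchiChr5G146620 at day 2 was -0.41 to 1.53.

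Of 25 calls among the named pathway genes, 23 were lost in at least 1 fit without 1 library. With 3 libraries a group, the standard errors of the members' log2 fold changes at day 1 ran from 0.28 to 1.58, which limits the differences that could pass.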

Other observations

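A gene outside the description rule, PchiChr8G230600, was chosen after its values were seen. It is described as an ethylene-forming enzyme, an older name of ACC oxidase, while its KEGG entry names a flavonol synthase, so its product is uncertain. It lies on chromosome 8 at 314529102 to 314532308 of block 1, on the plus strand. Its level was 0, 0.0825 and 0.0710 FPKM in CK, 8.63, 11.6 and 5.17 at day 1, and 9.73, 24.3 and 7.98 at day 2. All 6 treated libraries lay above CK, as for 10.4% of all genes tested, with the lowest at 62.7 times the highest CK library. The CK levels were near 0, so the size of this ratio and of the fold changes is uncertain. Day 1 library 2 did not stand apart as it did for PchiChr8G225290. The log2 fold change was 7.38 at day 1 (SE 1.03, edgeR adjusted p = 0.0109) and 8.12 at day 2 (SE 1.06, edgeR adjusted p = 0.00999), and both calls were lost without CK library 3 (edgeR adjusted p = 0.0589 and 0.0508). Over the alternatives other than leaving out 1 library, the estimates ran from 3.11 to 7.46 at day 1 and from 3.68 to 8.17 at day 2.

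A further 6 genes carry the enzyme number of ACC synthase or ACC oxidase with another description, and the highest level among them was 0.150 FPKM.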
